A study of Danio rerio with 697 samples.

Results

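The genes described here encode the proteasome, the barrel-shaped protease that degrades proteins tagged with ubiquitin. They were taken as every row of the zebrafish gene count table whose symbol begins with psma, psmb, psmc or psmd followed by a digit, which gave 49 of 32520 genes. By role, 10 of them belong to the alpha ring of the core, 7 to its constitutive beta ring, 7 to the immunoproteasome type of beta subunit, 7 to the ATPases of the cap's base, 5 to the non-ATPase subunits of the base, 9 to the lid, and 3 are assembly factors named psmd. The remaining gene, psmc3ip, matched by its letters but encodes a recombination factor and no subunit, so it was counted apart. No row with the symbol psma7 was found by the rule.

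The proteasome core is a stack of rings. The outer alpha rings form the gate, and the inner beta rings carry the proteolytic sites, of which psmb5 is known for chymotrypsin-like, psmb6 for caspase-like and psmb7 for trypsin-like cleavage. A cap docks on the core. Its base holds a ring of ATPases that unfold the substrate, and its lid removes ubiquitin. Beta cells make and fold large amounts of proinsulin, and the proteasome receives the misfolded share of it from the endoplasmic reticulum.

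The study profiled single beta cells of zebrafish larvae by Smart-seq2, a full-length method with 1 cell per well, after calcium overload in the living animal. Capsaicin (csn) opens the rat TRPV1 channel, which the line Tg(ins:TRPV) makes under the insulin promoter, so only cells with insulin promoter activity were meant to respond. The control group (Ctrl) was Tg(ins:Kaede) larvae, without the channel, given csn for 48 h from 3 to 5 days post fertilization. The treated groups were Tg(ins:TRPV);Tg(ins:Kaede) larvae given csn for 24 h (CSN24, from 4 to 5 days by the deposited design) or for 48 h from day 3 to day 5 (CSN48). The study's text instead starts both treatments at day 3, so CSN24 larvae may also have differed from Ctrl in age. All groups thus received csn and all carried the green-to-red reporter Kaede under the insulin promoter. Each of the 3 conditions was a pool of 20 larvae, whose islets were dissected and dissociated, and whose viable calcein-stained cells were sorted. The CSN48 wells carry labels of set 1 or set 2, and no source says how the sets differ. Ctrl wells lay on plate 1, CSN24 wells on plate 2 and both CSN48 sets on plate 3. Channel and plate therefore cannot be told apart between Ctrl and the treated groups. For CSN24, csn time differs from Ctrl as well and cannot be told apart from them. Each group was 1 sample, and no test between groups was made. The intervals given are exact 95% intervals (Poisson for counts, Clopper-Pearson for shares of wells) that cover counting error only, since the reads carry no molecular tags.

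Of 693 wells with a group, 613 passed the limits of 200 genes, 40% mitochondrial protein-coding counts and 50000 gene counts. Wells with over 1000 ins counts, called ins-high, numbered 538, of which 30.7% were from Ctrl, 25.1% from CSN24, 12.8% (69 wells) from CSN48 set 1 and 31.4% from CSN48 set 2, and 75 kept wells fell below that limit. The ins-high wells had median totals of 420614 to 659446 gene counts and median mitochondrial shares of 10.6% to 13.4%, and ins took 11.6% to 13.4% of their pooled counts. Gene counts per count of the added spike-in RNA were 524 in Ctrl, 258 in CSN24, 254 in set 1 and 359 in set 2. On the scale of spike-in counts, every value of the treated groups is therefore lower against Ctrl by 1.02 log2 units in CSN24, by 1.04 in set 1 and by 0.54 in set 2 than on the scale of gene counts used here, in which pooled counts were divided by all gene counts and multiplied by 1000000 (CPM). Pooled markers of other islet cells were also higher in the treated ins-high wells. The delta cell list (sst1.1, sst1.2, sst2 and hhex, of which 3 were found by symbol) had 1570, 14043, 23703 and 15975 pooled CPM in Ctrl, CSN24, set 1 and set 2. A further somatostatin gene, measured under the symbol sst, is not in this list, so the sums leave it out. The alpha cell list (gcga, gcgb and arxa) had 622, 1624, 7128 and 5643 pooled CPM in the same order. The list for iridophore pigment cells had 13.9, 17.5, 60.4 and 39.4 pooled CPM, with median wells at 4.55, 0, 51.4 and 16.05 CPM. The lists that follow also rested on few wells, with a median well at 0 in each group. Acinar markers had 0.851, 116.45, 931 and 75.8 CPM, with up to 46763 in 1 set 1 well. Liver markers had 9.94, 1103, 0.417 and 32.1 CPM, with up to 114849.5 in 1 CSN24 well. Erythrocyte markers had 165.44 CPM in Ctrl and under 1 CPM in the other groups, and leukocyte markers stayed at or under 1.01 CPM in every group. The part of these cells in the values below was not tested beyond the hormone-low wells described further on.

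Proteasome transcripts were found in few wells at a time and at high levels where they were found. Over the 26362 pairs of a member gene and an ins-high well, 76.8% held no count, 18.4% held 1 to 9 counts and 4.21% held 100 or more counts. The last class held 99.3% of all member counts, and the pairs with 1 to 9 counts held 0.454%. A well was therefore called positive for a gene at 100 CPM or more, which is 5 counts in a well of 50000. The limit lies between the low and the high wells of psma3 and psmd10. It was chosen after the values were seen, those of psma3 and psmd10 included, whose shares of positive wells are reported below. Per kilobase of exon and over all 538 ins-high wells, psmd10 (829 CPM per kb) and psma3 (826 CPM per kb) had the highest pooled levels. The next levels per kilobase were those of psmc6 (441 CPM per kb), psmb3 (397 CPM per kb) and psmb7 (312 CPM per kb).

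**Figure D1:**
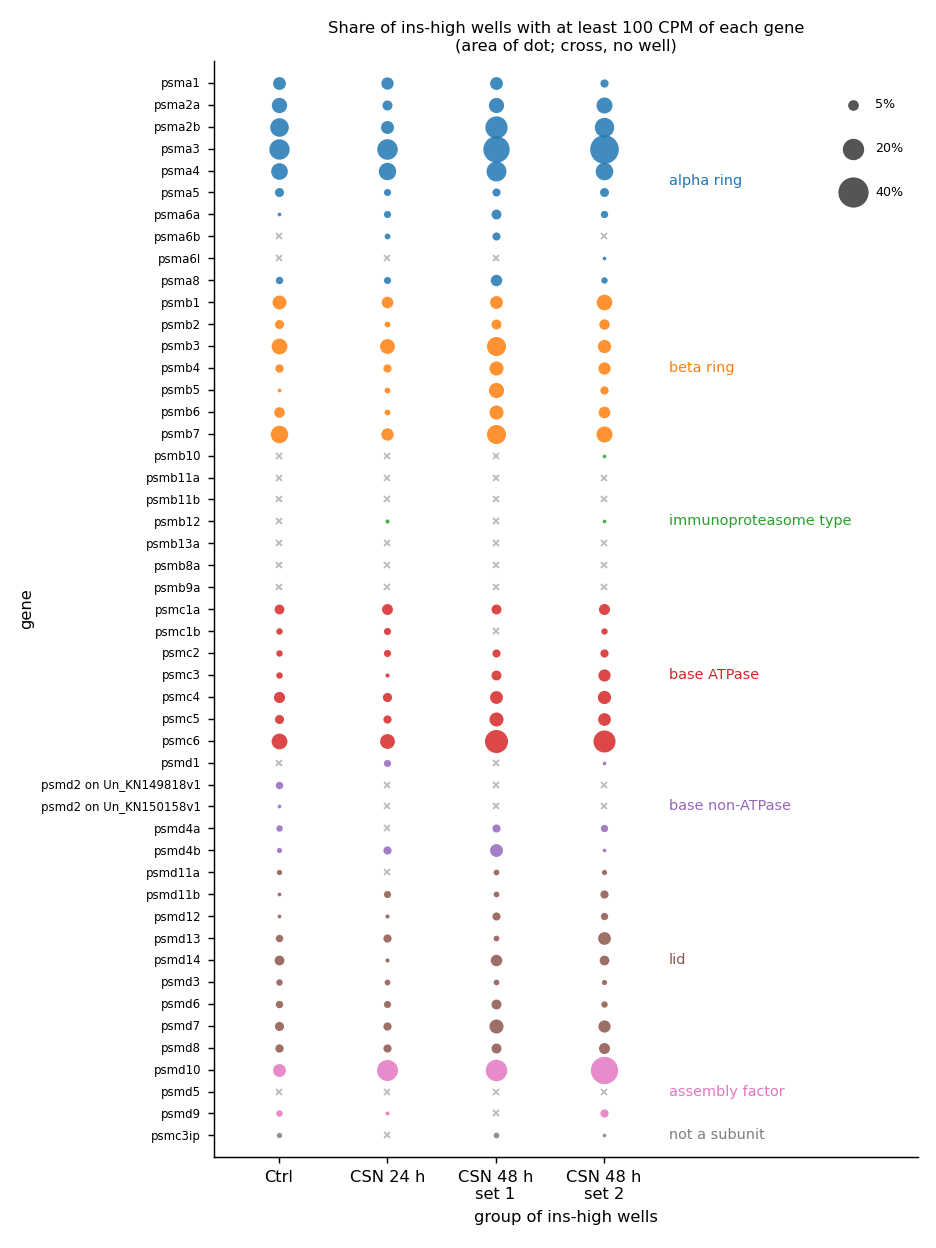
Each row is 1 of the 49 genes and each column a group of ins-high wells. The area of a dot is the share of wells with at least 100 CPM of that gene, and a cross marks a gene with no such well. Most dots are small, psma3, psmd10 and psmc6 have large dots in the CSN48 columns, and the immunoproteasome rows hold nearly only crosses.

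The pooled level of all 49 genes together was higher in each treated group than in Ctrl on the CPM scale. It was 5054 CPM in Ctrl, 7875 CPM in CSN24, 8766 CPM in set 1 and 8316 CPM in set 2. Single wells ran from 3.15 CPM through a median of 3896 to 25083 in Ctrl, from 12.0 through 6719 to 39010 in CSN24, from 16.2 through 5769 to 40174 in set 1, and from 15.0 through 6471 to 55607 in set 2. The wells of all groups overlapped over most of their range, and the medians of the treated groups lay above that of Ctrl. In wells with 300 or more genes at 100 CPM, described further on, the CSN24 median lay below that of Ctrl. The pooled log2 ratios against Ctrl were 0.64 (0.63 to 0.65) at 24 h, 0.79 (0.79 to 0.80) in set 1 and 0.72 (0.71 to 0.72) in set 2. The same sums per spike-in count gave log2 ratios of -0.38, -0.25 and 0.17, so the direction at 24 h and in set 1 depends on the scale. The sets of the same treatment and plate differed by 0.08 in log2 (0.07 to 0.08), or by -0.42 per spike-in count. A large part of the excess came from psmd10 and psma3. Without that pair, the log2 ratios were 0.34, 0.56 and 0.26.

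**Figure D2:**
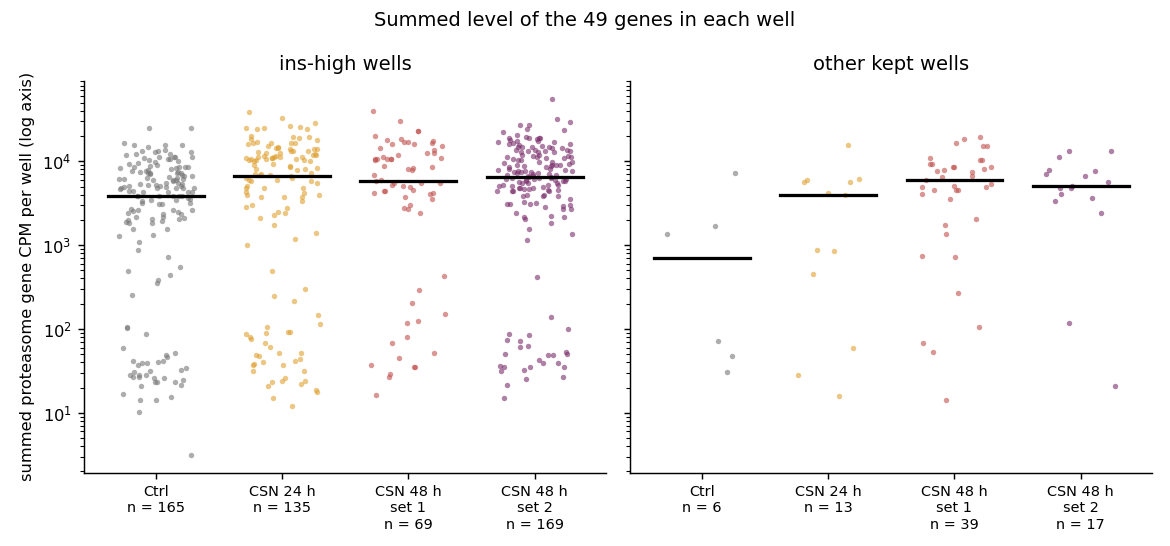
Each point is a well, placed by the summed CPM of the 49 genes on a log axis, with ins-high wells on the left, other kept wells on the right and a bar at each median. The ins-high medians were 3896 in Ctrl, 6719 in CSN24, 5769 in set 1 and 6471 in set 2, and each group also has a lower cloud of wells under about 100 CPM.

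By class, the excess was uneven. The alpha ring had 1687, 2802, 2847 and 2723 CPM in Ctrl, CSN24, set 1 and set 2. The beta ring had 1169, 1616, 1880 and 921 CPM, so set 2 alone lay below Ctrl. The ATPases of the base had 1241, 1339, 1522 and 1833 CPM, and the lid had 549, 465, 807 and 783 CPM. Assembly factors had 299.2, 1278, 1250 and 1979 CPM, mostly from psmd10. Core subunits together had log2 ratios of 0.65, 0.73 and 0.36 against Ctrl, and cap subunits had 0.18, 0.50 and 0.51. Per spike-in count, the core had -0.37, -0.32 and -0.19 and the cap -0.84, -0.54 and -0.04. Neither sum lay above Ctrl on that scale. The assembly factors did in each treated group, by 1.07, 1.02 and 2.18 in log2. Within the cap, the non-ATPase subunits of the base had log2 ratios of 1.82, 1.88 and -0.61 on the CPM scale. Per spike-in count they had 0.80, 0.83 and -1.15, so they also lay above Ctrl at 24 h and in set 1. A single well held 45.7% of their counts in CSN24 and 49.2% in set 1.

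Gene by gene, a member was compared where at least 25% of the wells of either group held a count, and was called higher or lower at a 1.5-fold difference in pooled CPM + 1. At 24 h, 10 of 17 such members were higher than in Ctrl, where 29.2% of all 1122 genes compared were, and 0 were lower, where 30.7% of all genes were. In set 1, 15 of 22 members were higher (all genes 36.6%) and 2 were lower (all genes 27.9%). In set 2, 7 of 18 members were higher (all genes 28.2%) and 3 were lower (all genes 27.9%). Between the sets, 9 of 22 members were higher in set 1 (all genes 32.8%) and 4 were lower (all genes 26.7%). These counts depend on how a gene passed the limit on wells. Of the members, 2 at 24 h, 7 in set 1 and 3 in set 2 passed it only through the treated group, and 1, 7 and 2 of them were higher. A gene that passes in this way is prone to be higher, so these calls carry no weight. The same 15 members passed the limit in Ctrl for each comparison, a choice that favours genes high in Ctrl. Of those 15, 9 were higher and 0 lower at 24 h (25.8% and 32.7% of the 1047 genes that passed in Ctrl), 8 higher and 2 lower in set 1 (28.1% and 32.1%), and 5 higher and 3 lower in set 2 (20.1% and 32.6%). Their median log2 ratios were 0.81, 0.60 and 0.42.

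In both sets, 6 of 18 members compared were higher than in Ctrl (all genes 15.9%). The 6 were psma2a, psma3, psmc3, psmc5, psmd8 and psmd10. Of these, psmc3 and psmd8 passed the limit on wells only through the treated group in each set. The calls of psmc3 and psmd8 therefore carry no weight. Single wells weighed heavily on the calls of the 6. With each gene's own top well left out of each group, psma3, psmc3, psmc5 and psmd10 still passed the fold in both sets, psma2a had log2 ratios of 0.36 and 0.53, and psmd8 turned in set 1 to -1.18. On this basis 9 of 17 members were higher and 5 lower at 24 h (all genes 23.6% and 38.1%), 11 of 22 higher and 5 lower in set 1 (29.5% and 39.8%), and 8 of 18 higher and 3 lower in set 2 (29.01% and 30.1%). Per spike-in count, 3 of 17, 3 of 22 and 6 of 18 members were higher and 7, 6 and 4 were lower at 24 h, in set 1 and in set 2, where 8.56%, 13.3% and 13.8% of all genes compared were higher and 64.7%, 58.2% and 46.5% lower.

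**Figure D3:**
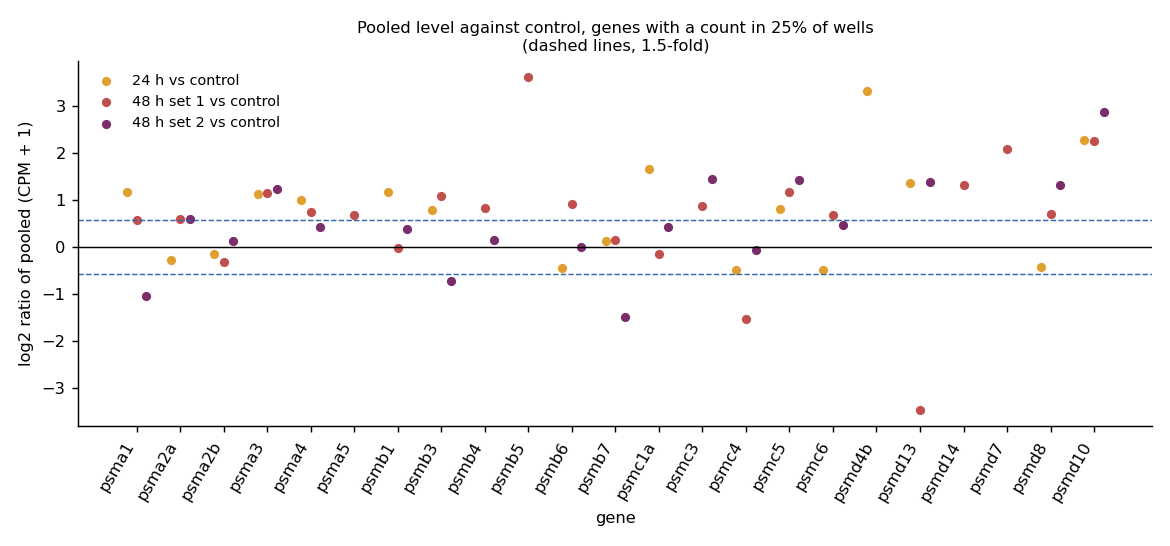
The vertical axis is the log2 ratio of pooled CPM + 1 against Ctrl, with 1 column per member that could be compared and dashed lines at 1.5-fold. Points for psma3 and psmd10 lie above the upper line in all 3 comparisons, at 1.14 to 1.23 and at 2.27 to 2.87, while psmd13 (1.36, -3.47 and 1.39) and psma1 (1.17, 0.58 and -1.04) lie on both sides of 0.

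The share of positive wells gave a second view, which does not grow with the depth of a single high well. Of 675 genes with at least 10% positive wells in any group, 10 were members, and a step of 10 percentage points against Ctrl was read as higher or lower. At 24 h only psmd10 of the 10 was higher (all genes 1.33%) and 0 were lower (all genes 18.5%). In set 1, psma3, psmc6 and psmd10 were higher (3 of 10, all genes 13.0%) and 0 were lower (all genes 8.74%). In set 2 the same 3 genes were higher (all genes 7.41%) and 0 were lower (all genes 3.85%). Of the 10, psmb1, psmb5 and psmd10 had under 10% positive wells in Ctrl and were counted only through a treated group. Among the other 7, 0 were higher at 24 h, and psma3 and psmc6 were higher in each set (1.19%, 13.4% and 8.35% of the 419 genes with 10% in Ctrl at 24 h, in set 1 and in set 2). All 3 genes passed in both sets, where 26 of the 675 genes (3.85%) did. As psmd10 was counted only through a treated group, its calls by this step carry no weight. Among those 26 genes, ordered by the smaller of the 2 steps, psmd10 was number 15, psma3 number 17 and psmc6 number 26, and sst2, sst and sst1.2, the somatostatin genes of delta cells, were numbers 1, 2 and 5.

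Of the alpha ring, psma3 (chromosome 17, 11421643 to 11439815, minus strand, GRCz11) was the most widespread. Its pooled level was 583 CPM in Ctrl, 1281 CPM in CSN24, 1302 CPM in set 1 and 1365 CPM in set 2. Wells ran from 0 to 8217 CPM in Ctrl (median 4.66), to 16385 CPM in CSN24 (median 4.68), to 10963 CPM in set 1 (median 12.8) and to 18629 CPM in set 2 (median 10.9). At 24 h the share of positive wells was that of Ctrl, with 25 wells (18.5%, 12.4 to 26.1) against 30 (18.2%, 12.6 to 24.9). What differed there was the level in positive wells, with a median of 7741 CPM against 2970 CPM. At 48 h the reverse held. Positive wells were more frequent, at 21 wells of set 1 (30.4%, 19.9 to 42.7) and 61 of set 2 (36.1%, 28.9 to 43.8), and their medians of 3005 and 2800 CPM were close to that of Ctrl. The log2 ratios of pooled CPM + 1 were 1.14, 1.16 and 1.23, and per spike-in count 0.12, 0.12 and 0.68.

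The other alpha ring genes did not move together. The level of psma4 was 262, 526, 438 and 350 CPM in Ctrl, CSN24, set 1 and set 2, which passed the fold at 24 h (1.00) and in set 1 (0.74). Another ring subunit, psma1, had 82.8, 187.8, 124.3 and 39.7 CPM, and was among the lowest members of set 2, at -1.04. For psma2a the values were 178.6, 147.99, 272 and 270 CPM, with log2 ratios of 0.60 in each set. For psma2b, the other copy of the same subunit, they were 464, 421, 372 and 504.4 CPM, and the set 1 ratio of -0.32 was among the 3 lowest there. The 2 copies may share reads, and psma2a overlaps mrpl32 on the opposite strand and atad2. In set 1, psma5 passed the fold (0.67), yet 1 well held 95.2% of its counts there, and without the top wells its ratio was -3.07. It was also compared there only through set 1. The remaining 4 alpha ring genes, psma6a, psma6b, psma6l and psma8, had 0 to 4 positive wells in each group.

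The 3 catalytic subunits of the beta ring were seldom found. For psmb5 the pooled level was 16.2 CPM in Ctrl, 21.6 CPM in CSN24, 208.6 CPM in set 1 and 131.6 CPM in set 2, from 1, 2, 7 and 5 positive wells. A single well held 98.7% and 96.2% of its counts in Ctrl and CSN24 and 69.1% and 68.3% in the sets. Its log2 ratio of 3.61 in set 1 was the highest of any member compared in that set, and without the top wells set 1 had 65.8 CPM against 0.207 CPM in Ctrl. The gene was compared there only through set 1, so this call carries no weight. The level of psmb6 was 79.7, 58.3, 151.4 and 79.6 CPM from 8, 2, 6 and 10 positive wells, with ratios of -0.44, 0.92 and -0.0023. For psmb7 it was 451, 496, 501 and 159.7 CPM from 22, 9, 11 and 19 positive wells. Set 2 was thus the lowest group for psmb7, with a log2 ratio of -1.49, although its share of positive wells (11.2%) lay near that of Ctrl (13.3%).

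Positive wells for more than 1 of the catalytic genes were rare. In Ctrl 25 wells were positive for 1 of the 3 and 3 wells for 2. In CSN24 the numbers were 11 and 1, in set 1 they were 12 and 3, and in set 2 they were 18 and 8. None of the 3 was positive in 83.03% of Ctrl wells, 91.1% of CSN24 wells, 75.4% of set 1 wells and 84.6% of set 2 wells. Only set 1 held wells positive for all 3, and there were 2 of them. A well without a catalytic transcript at 100 CPM was thus the rule in every group, the control included.

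Among the structural beta subunits, psmb3 had 302, 521, 639 and 181.9 CPM in Ctrl, CSN24, set 1 and set 2. It passed the fold upwards at 24 h (0.78) and in set 1 (1.08) and downwards in set 2 (-0.73), and the same held without its top wells. Among the members compared between the sets, the 3 largest differences in favour of set 1 were those of psmb3 (1.81), psmb7 (1.64) and psma1 (1.62). There psma1 was compared only through set 1. The level of psmb1 was 173.2, 392, 171.8 and 226.8 CPM, with a ratio of 1.18 at 24 h. Of the rest, psmb4 passed in set 1 (0.83, with 61.5% of its counts there in 1 well), where it was compared only through set 1. psmb2 stayed within the fold in all 3 comparisons (-0.42, -0.01 and -0.34).

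Immunoproteasome-type subunits, some of which replace the catalytic beta subunits in immune cells and after interferon, were nearly absent. Their pooled level was 0.355 CPM in Ctrl (0.251 to 0.488), 53.4 CPM in CSN24, 0.417 CPM in set 1 and 11.9 CPM in set 2. Of the 53.4 CPM, nearly all came from 1 CSN24 well with 8391 CPM of psmb12, a gene of the fish family of such subunits. In set 2, 1 well was positive for psmb12 (938 CPM) and 1 for psmb10 (745 CPM). No ins-high well was positive for psmb8a, psmb9a, psmb11a, psmb11b or psmb13a, which, taking 3 wells as the most that a count of 0 allows, leaves a share of up to 1.82% of wells in Ctrl, 2.22% in CSN24, 4.35% in set 1 and 1.78% in set 2. psmb11a had no count in any group. These values are limited by overlap, since psmb8a, psmb9a, psmb12 and psmb13a lie over each other in the annotation of chromosome 19, and the strand setting of the counting is not given in the sources used here.

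In the ATPase ring, psmc6 (chromosome 20, 9763364 to 9776334, plus strand) was the most widespread. Its positive wells numbered 18 in Ctrl (10.9%, 6.59 to 16.7), 13 in CSN24 (9.63%, 5.23 to 15.9), 16 in set 1 (23.2%, 13.9 to 34.9) and 36 in set 2 (21.3%, 15.4 to 28.3). Single wells ran from 0 to 21523, 16136, 19105 and 16488 CPM, with medians of 2.51, 2.32, 5.33 and 5.10 CPM, so the ranges of the groups overlapped throughout. The pooled level was 627, 444, 1011 and 862 CPM, which gave log2 ratios of -0.50, 0.69 and 0.46. The single top well of Ctrl held 29.5% of the Ctrl counts. Without the well of each group with most member counts the ratios were 0.0074, 1.22 and 0.97, so set 2 then passed the fold. That well need not be the top well of psmc6. With the gene's own top well left out of each group, the ratios were -0.64, 0.62 and 0.69. On that basis psmc6 passed the fold downwards at 24 h and upwards in both sets. At 20% mitochondrial counts the 24 h ratio was -1.20, past the fold downwards. Per spike-in count the ratios were -1.52, -0.35 and -0.09.

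Other ATPases differed by group and not by a common direction. Both psmc3 and psmc5 passed the fold in both sets. For psmc3 these calls carry no weight, since it was compared only through the treated group in each set. The level of psmc3 was 62.1, 53.4, 114.8 and 171.4 CPM from 3, 1, 3 and 11 positive wells, with ratios of 0.88 and 1.45 in the sets. For psmc5 it was 69.1, 121.6, 157.03 and 189.03 CPM from 6, 4, 6 and 12 positive wells, with ratios of 0.81, 1.17 and 1.44. The level of psmc1a was 101.8, 322, 91.9 and 136.6 CPM, the third highest ratio at 24 h (1.65), and 1 CSN24 well held 47.9% of it. By contrast psmc4, the ATPase that psmd10 binds during assembly, had 300, 213.9, 102.96 and 288 CPM, with ratios of -0.49, -1.53 and -0.06. In set 1 that ratio was the second lowest of the members compared, and it remained past the fold without the top wells (-1.91). Against set 2 it was -1.47. Few wells were positive for psmc1b and psmc2, with 0 to 5 in each group.

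In the base without ATPase activity, the ubiquitin receptor psmd4 has 2 zebrafish copies. The level of psmd4b was 28.5, 295, 263 and 31.4 CPM, which gave the highest ratio of the 24 h comparison (3.33). The gene was compared there only through CSN24, so this call carries no weight. Its level rested on 4 positive CSN24 wells against 2 in Ctrl, and on 5 and 1 in the sets. The level of psmd4a was 30.0, 0.628, 69.5 and 21.5 CPM from 3, 0, 2 and 4 positive wells, and it was too seldom found to be compared. The 2 gene models named psmd2, a scaffold subunit, lie on the unplaced scaffolds Un_KN149818v1 and Un_KN150158v1. They had 4 and 1 positive wells in Ctrl and 0 in each treated group, which at the limit of 3 wells leaves up to 2.22%, 4.35% and 1.78% of wells in CSN24, set 1 and set 2. psmd1, a scaffold subunit that overlaps htr2b, had 0, 3, 0 and 1 positive wells.

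In the lid, the deubiquitinase psmd14 had 50.7, 26.1, 127.4 and 80.2 CPM from 7, 1, 4 and 7 positive wells. It passed the fold in set 1 (1.31). Its partner psmd7 had 49.3, 35.3, 211.3 and 69.7 CPM, with a ratio of 2.08 in set 1, the third highest of the members compared there. Both psmd14 and psmd7 were compared there only through set 1, so these calls carry no weight. For psmd8 the values were 101.8, 74.99, 167.5 and 256 CPM from 5, 4, 3 and 9 positive wells, with ratios of -0.44, 0.71 and 1.32, and in set 1 a single well held 84.3% of the counts. As psmd8 was compared only through the treated group each time, its calls carry no weight. The widest difference between the sets among members compared was that of psmd13, with 84.9, 219.7, 6.77 and 224.7 CPM. Its ratios were 1.36 at 24 h, -3.47 in set 1 and 1.39 in set 2, from 4, 4, 1 and 12 positive wells, and the sets differed by -4.86. The other 5 lid genes, psmd3, psmd6, psmd11a, psmd11b and psmd12, had 0 to 5 positive wells in each group.

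Of the assembly factors, psmd10 (gankyrin, which guides the base ATPases during assembly and is not part of the finished particle) held most of the counts of the class in each group. The gene lies on chromosome 14, 28464736 to 28469244, plus strand, and overlaps nxt2 on the opposite strand. Its pooled level was 259 CPM in Ctrl, 1252 CPM in CSN24, 1249 CPM in set 1 and 1900 CPM in set 2. Wells ran from 0 through a median of 1.87 to 11046 CPM in Ctrl, from 0 through 5.02 to 38538 CPM in CSN24, from 0 through 5.79 to 29158 CPM in set 1, and from 0 through 12.3 to 38907 CPM in set 2. Ctrl was lowest in median and in maximum, although the ranges overlapped. Positive wells numbered 12 in Ctrl (7.27%, 3.81 to 12.4), 26 in CSN24 (19.3%, 13.0 to 26.9), 14 in set 1 (20.3%, 11.6 to 31.7) and 55 in set 2 (32.5%, 25.5 to 40.2). These intervals cover the counting of wells within 1 sample and do not compare the conditions. The median level in positive wells was 2490, 5629, 2563 and 3242 CPM. The log2 ratios of pooled CPM + 1 were 2.27, 2.27 and 2.87, and without the top well of each group they were 2.56, 2.25 and 3.18. On the spike-in scale they were 1.251, 1.224 and 2.328, so the direction did not depend on that scale. Between the sets, psmd10 was lower in set 1, by -0.61. psmd9, another chaperone of the base, had 3, 1, 0 and 5 positive wells, and psmd5 had 0 in every group.

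**Figure D4:**
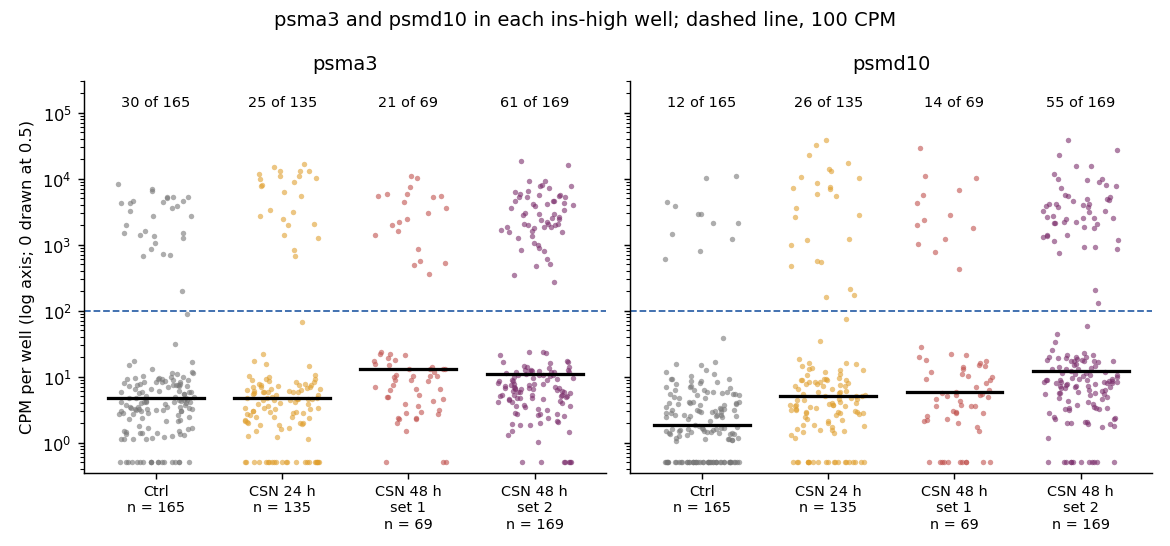
Each point is an ins-high well, placed by its CPM of psma3 (left) or psmd10 (right) on a log axis, with wells at 0 drawn at 0.5, a bar at the median and a dashed line at 100 CPM. The numbers above give the wells at or above the line, which for psmd10 were 7.27% of the wells in Ctrl and 19.3%, 20.3% and 32.5% in CSN24, set 1 and set 2.

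The low values of psmd10 also differed by group. A count of it was found in 70.3%, 84.4%, 84.1% and 92.9% of the wells of Ctrl, CSN24, set 1 and set 2, most of them below 100 CPM. The median well was lowest in Ctrl (1.87 CPM) and highest in set 2 (12.3 CPM), as the pooled level was. What part of these low counts came from the cell in the well was not tested. They decide which genes had counts in 25% of wells.

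Positive wells of psma3 and psmd10 were partly the same wells. Both genes were positive in 5 wells of Ctrl, 5 of CSN24, 8 of set 1 and 23 of set 2. Only psmd10 was positive in 7, 21, 6 and 32 wells. A subunit of the core and a subunit of the cap were both positive in 50 wells of Ctrl (30.3%), 30 of CSN24 (22.2%), 31 of set 1 (44.9%) and 67 of set 2 (39.6%). Neither was positive in 23.6%, 30.4%, 20.3% and 20.7% of wells. The mean number of positive members in a well was 1.81 in Ctrl, 1.57 in CSN24, 2.88 in set 1 and 2.65 in set 2, with maxima of 8, 9, 12 and 12.

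The number of positive members followed the number of genes of any kind found in a well. Wells with under 200 genes at 100 CPM had on average 0.982, 1.19, 1.44 and 1.39 positive members in Ctrl, CSN24, set 1 and set 2. Wells with 300 genes or more had 3.64, 4.21, 5.00 and 4.51. Within each of the 3 ranges of gene number both sets lay above Ctrl, and CSN24 lay above Ctrl in the lowest and the highest range and below it in the middle one (1.65 against 1.82). Members made up 7.58, 8.48, 10.5 and 9.73 of every 1000 positive genes. For psmd10 the share of positive wells lay above Ctrl in every range and group. It was 7.02%, 14.9%, 11.1% and 23.0% in wells with under 200 genes, and 12.0%, 42.9%, 26.1% and 45.5% in wells with 300 or more, where the groups held 25, 14, 23 and 55 wells. In the same order, psma3 was positive in 10.5%, 15.8%, 14.8% and 24.6% of wells with under 200 genes. With 200 to under 300 genes its shares were 18.1%, 15%, 21.1% and 28.3%. For psmc6 they were 5.26%, 5.94%, 11.1% and 8.2%, then 10.8%, 10%, 15.8% and 15.1%. The 10-point steps of psma3 in set 1 and of psmc6 in both sets were thus seen only with 300 genes or more. For psma3 in set 2 the step held in every range.

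**Figure D5:**
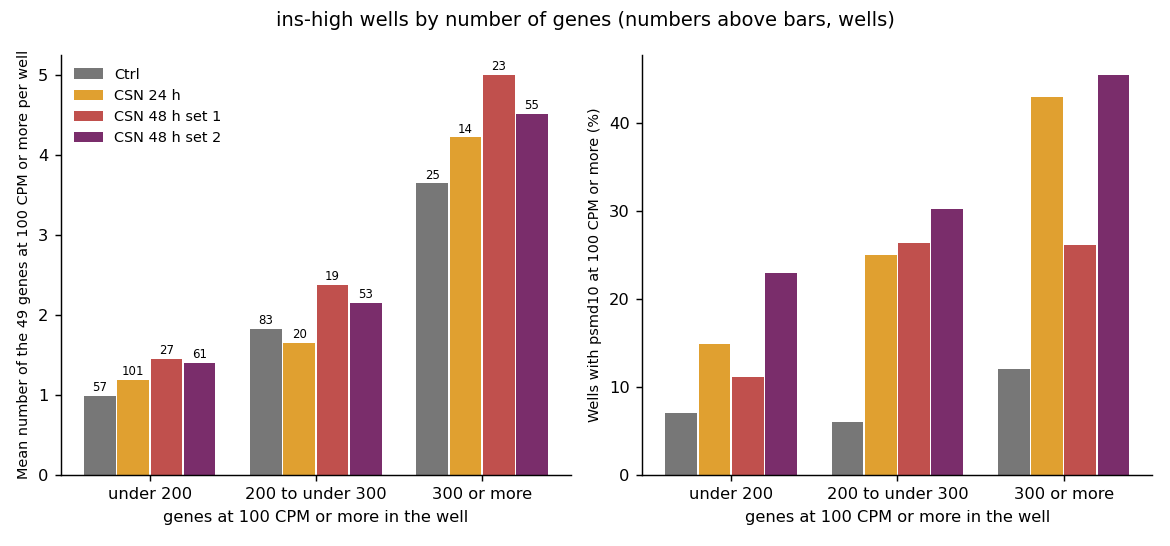
Ins-high wells are split by the number of genes at 100 CPM or more (under 200, 200 to under 300, 300 or more). Bars give the mean number of the 49 genes that are positive per well (left, with the number of wells above) and the percentage of wells positive for psmd10 (right). The left bars grow with gene number in each group, and the Ctrl bar for psmd10 is the lowest of each range, at 7.02%, 6.02% and 12.0%.

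Pooled levels of delta and alpha cell hormones were higher in the treated groups. The ins-high wells with under 1000 CPM of each of gcga, sst1.2, sst2 and sst were taken alone, an alternative chosen after seeing the values. They numbered 85 in CSN24, 42 in set 1 and 80 in set 2, and made up 75.2% of the Ctrl wells. In them, psmd10 was positive in 6.45%, 14.1%, 23.8% and 25.0% of wells, so all treated groups lay above Ctrl, although the 24 h step was under 10 points. For psma3 the shares were 16.9%, 14.1%, 21.4% and 30.0%, so the set 1 step was under 10 points there. For psmc6 they were 11.3%, 7.06%, 14.3% and 13.8%, and its pooled log2 ratio in set 1 turned to -1.11. The 10-point step of psmc6-positive wells in the CSN48 groups was therefore not seen among wells low in the other hormones. The summed log2 ratios of all members in these wells were 0.85, 0.69 and 0.68. Whether the other hormone transcripts came from the sorted cell or from others was not tested.

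Pooled, the 75 kept wells with 1000 ins counts or fewer were low in this beta cell marker and high in markers of other cells. Delta cell genes had 168007, 369669, 63412 and 164868.5 CPM in Ctrl, CSN24, set 1 and set 2. Iridophore pigment cell genes had 11.4, 10.5, 48216 and 40155 CPM, with a median well at 44533 CPM in set 1 and at 37.1 CPM in set 2. Their summed proteasome level was 1807 CPM in Ctrl (6 wells), 3488 in CSN24 (13 wells), 6668 in set 1 (39 wells) and 6153 in set 2 (17 wells). Each pooled level lay below that of the ins-high wells of its own group, by log2 ratios of -1.48, -1.18, -0.39 and -0.43. Without psmd10 and psma3 the ratios were -1.96, -1.41, -0.38 and 0.06, so set 2 then lay slightly above. In Ctrl a single well held 69.8% of the counts. The median well lay above that of the ins-high wells only in set 1, at 5915.5 against 5769 CPM. The mean number of positive members in the 75 wells was 0.667, 2.46, 4.26 and 4.65. It lay above that of the ins-high wells in the treated groups and below it in Ctrl. Per 1000 positive genes, ins-high wells had 7.58, 8.48, 10.5 and 9.73 members and the 75 wells 2.84, 7.45, 10.8 and 11.9. On that measure the CSN24 wells among the 75 also lay below. For psmd10, 0 of 6, 4 of 13, 12 of 39 and 3 of 17 of these wells were positive, and the Ctrl wells were too few to limit the share. In the CSN48 groups psma3 was positive in 19 of 39 and 9 of 17 of them. The single well with the most positive members, 16 of 49, was a set 1 well of this kind.

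Genes that work with the proteasome were more often lower than higher. Of 52 gene rows found for a list of activators, assembly factors, ubiquitin genes, shuttles, endoplasmic reticulum degradation genes and regulators of subunit genes, 12, 14 and 13 could be compared at 24 h, in set 1 and in set 2. Of these, 2, 3 and 2 were higher (all genes 29.2%, 36.6% and 28.2%) and 6, 6 and 6 were lower than in Ctrl (all genes 30.7%, 27.9% and 27.9%). Genes lower in both sets were the ubiquitin genes and their partners. The ubb copy ENSDARG00000002369, which encodes ubiquitin repeats, had 15907, 7344, 4404 and 7575 CPM, and the copy ENSDARG00000093313 had 3673, 1430, 857 and 1398 CPM. In Ctrl 92.7% and 94.5% of wells were positive for these copies. The polyubiquitin gene ubc had 313, 196.3, 156.3 and 153.99 CPM. The conjugating enzyme ube2d2 had 221.1, 189.9, 125.9 and 83.3 CPM, and sqstm1, a receptor that carries ubiquitinated cargo to autophagy, had 348, 288, 195.1 and 132.8 CPM. One conjugating enzyme, ube2l3b, was higher in both sets, with 30.0, 32.1, 331 and 82.1 CPM. It passed the limit on wells only through the treated group in each set, so these calls carry no weight. The same holds for psmg2, which is also among the genes counted as higher in set 1. None of the activators or of the endoplasmic reticulum degradation genes was found in enough wells to be compared.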

How the data were processed

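Smart-seq2 libraries of single sorted cells were sequenced and processed by the authors. Per the labels, bcl2fastq 2.19.1, GSNAP and featureCounts 2.0.1 were used with GRCz11, and the strand setting is not given in the sources used here. The deposited values are whole read counts per gene and spike-in RNA, not normalized. Reads carry no molecular tags, so PCR copies are counted.

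From these counts, wells with at least 200 genes, at most 40% counts from the 13 mitochondrial protein-coding genes and 50000 gene counts were kept. Counts were summed over the wells of a group and scaled to 1000000 gene counts of those wells (CPM). The ins-high wells numbered 165 in Ctrl, 135 in CSN24, 69 in set 1 and 169 in set 2. Folds used CPM + 1, with 1.25 as a looser and 2 as a stricter fold. The code ran on pandas 2.3.3 and numpy 2.4.6 under Python 3.11.15, with matplotlib 3.10.9 for plots and scipy 1.17.1 for intervals, and was tested on simulated data. Groups came from the labels and each counted as 1 sample, so no test was made.

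Named with values were the catalytic, immunoproteasome, psmd4, psmd14, psmc6 and psmd10 genes, the 3 highest and 3 lowest ratios of each comparison, genes past the fold in both 48 h sets, and psmb11a, which had no count. Others, named after their values were seen, fill their class. Symbols of 42 members were written in lower case or with a suffix from RefSeq, of which 10 took their paralog letter by chromosome. Near-identical copies may share reads. The members and lists were chosen with earlier results of these data known. The 100 CPM limit, the hormone, spike-in by gene, top-well and average-share alternatives were chosen after seeing the data. Values of 1 gene of the partner list are not reported here. No sequences are shown, and 4 wells without a group entered no comparison.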

Additional observations from a re-analysis of the deposited data

Results flagged for a closer look

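Proteasome transcripts were also present in 3 wells whose labels name RNA and put them in none of the study's groups. Each lay above the pooled Ctrl level of 5054 CPM, beyond its counting interval. The well on plate 1 had a summed level of 8860 CPM (8127 to 9642) with counts for 23 of the 49 genes, that on plate 2 had 12618 CPM (11606 to 13693) with 24 genes, and that on plate 3 had 13418 CPM (12402 to 14494) with 26 genes. In these wells psmd10 had 16.5, 242 and 41.6 CPM, from 1, 11 and 2 counts. Both the sum and psmd10 were thus lowest on plate 1, the plate of the Ctrl wells, with 1 such well per plate. The summed log2 ratios against Ctrl were 0.64 for CSN24 (plate 2) and 0.79 and 0.72 for the sets (plate 3). The part of plate in those ratios was not tested and cannot be told apart from that of the channel.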

How the results depend on the processing

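Values are in the order 24 h, set 1, set 2 against Ctrl and, where another follows, set 1 against set 2. Summed log2 ratios were 0.72, 0.77, 0.75 and 0.0219 as the mean of the wells' own CPM, 0.76, 0.89, 0.84 and 0.0584 without ins and mitochondrial genes in the total, 0.55, 0.56, 0.67 and -0.0673 with the median of all genes at 0, 0.73, 0.77, 0.74 and 0.0324 thinned to 50000 counts, 0.55, 0.75, 0.74 and 0.0099 at 20% mitochondrial counts, 0.67, 0.74, 0.70 and 0.0469 above 10000 ins counts, 0.61, 0.69, 0.71 and -0.0216 over all kept wells, 0.65, 0.78, 0.73 and 0.0508 without the top well, -0.38, -0.25, 0.17 and -0.42 per spike-in count, 0.34, 0.56, 0.26 and 0.30 without psmd10 and psma3, and 0.85, 0.69, 0.68 and 0.00063 in hormone-low wells. Without psmc3ip, set 1 had 0.78 and the sets differed by 0.0562. The sign against Ctrl turned only per spike-in count. Members lower at 24 h, 0 as reported, numbered 2 by the wells' own CPM, 1 with the median at 0, 3 at 20% mitochondrial counts, 1 in hormone-low wells, 4 at the looser fold and 5 without each gene's top well. Thinning left 2, 4, 3 and 2 members higher and 0 (set 1), 0 (set 2) and 1 (between sets) lower. Hormone-low wells gave 9 higher and 8 lower in set 1, 9 lower between sets, and a psmc6 ratio of -1.11 in set 1. Without a minimum share of wells, 18 (24 h), 17 (set 2) and 17 (between sets) were higher and 11, 9, 9 and 12 lower. The looser fold gave 11 higher in set 2 and 8 lower between sets, and the stricter fold gave 7 higher in set 1 and 5 higher and 2 lower between sets. Without each gene's top well, 5 were lower in set 1 (all genes 39.8%), and 5 were higher and 9 lower between sets (22.9% and 39.7%). With counts in 25% of wells on average over the groups, 5 of 18 were higher between sets (all genes 27.6%), and the other counts stayed within 1.5 times. For the other settings the share of all genes is not given, and the number of members compared changed with several of them. Those counts cannot be read as a gain or loss of members against the main counts. For psmc6, the set 1 ratio was 0.46 with the median at 0 and 0.55 over all kept wells, under the fold. On the CPM scale psmd10 stayed past the fold in all 30 of its alternative ratios, as did psma3, which per spike-in count did not at 24 h (0.12) or in set 1 (0.12). No paired analysis was possible because each group is 1 sample. Most members had few positive wells, and thinning to 50000 counts left the shares of positive wells of psma3 and psmc6 as they were. Other settings took some 10-point steps under that size. With 1000 CPM as the positive limit, psma3 had 23.2% in set 1 against 15.2% in Ctrl. There psmd10 had 14.1% at 24 h against 6.06%, and psmc6 had 20.29% in set 1 against 10.303%. With 20 CPM, psmc6 had 21.9% in set 2 against 12.7%. Above 10000 ins counts, psma3 had 25.8% in set 1 against 18.75%.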

Other observations

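The well labelled NC, which has no group, held 3617 gene counts, of which 18 came from 12 of the 49 genes (4977 CPM, 2949 to 7865), with 3 counts of psmd10 and 1 of psma3.

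The level of rps27a, which supplies ubiquitin together with a ribosomal protein, was 1063, 1145, 1278 and 835 CPM in Ctrl, CSN24, set 1 and set 2, and stayed within the fold in all 3 comparisons. Among genes of assembly and unfolding that could be compared, pomp, which matures the core, had 112.9, 35.5, 125.5 and 158.6 CPM, and vcp, which extracts proteins for degradation, had 237, 96.7, 248 and 89.4 CPM. The cap subunit sem1, which lies outside the naming rule, had 131.2, 219.1, 436 and 130.7 CPM. The stress regulator nfe2l2a had 115.8, 62.7, 13.1 and 138.04 CPM. None of these differed in the same direction by the fold in both sets.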
